A study of Mus musculus with 2 samples.

Results

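The genes described here encode integrins and the adaptor proteins that couple them to actin at focal adhesions. They were chosen by symbol and not by any measured value. The rule took every integrin alpha chain named by Itga and a number except Itga2b, the chains Itgae, Itgal, Itgam, Itgav and Itgax, the beta chains Itgb1 to Itgb8, and 15 adaptor genes. Of these 39 genes, 36 had at least 1 probe set annotated to that symbol alone, out of 18193 genes so annotated on the array. They comprised 23 integrin chains and 13 adaptors, read by 86 probe sets. The other 3, the collagen-binding chain gene Itga11, the kindlin gene Fermt1 and the focal adhesion kinase gene Ptk2, were not analysed here.

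RNA came from wild-type C57Bl6 mouse embryos at E12.5. The mesothelial sample held cells of the outer covering of the liver, sorted by FACS with antibodies to podoplanin (Pdpn) from trypsin-EDTA digests, and the other sample held liver cells of the same genotype, strain and age. The labels do not say whether Pdpn-positive cells had been taken out of the liver cells, how many embryos were pooled, or what purity the sort reached. One free-text label, carried by both samples, describes far younger embryos, and the stated age was used. Each group had 1 array, so no difference could be tested, no value has an error between samples, and every statement describes these 2 arrays.

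An integrin is a dimer of an alpha and a beta chain that spans the cell membrane. Outside the cell it binds matrix proteins such as laminins, collagens and fibronectin, or counter-receptors on other cells. Inside, the beta tail is bound by talins and kindlins, which switch the integrin on, and the complex of ILK, PINCH and parvin, with paxillin, vinculin and zyxin, links it to actin filaments. Mesothelium is an epithelium on a laminin-rich basement membrane, whereas much of the fetal liver at this stage is blood-forming tissue.

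Values are probe set intensities as deposited, on a linear scale, and a difference is log2 mesothelial minus log2 liver intensity. Where a gene had several probe sets, the one with the highest mean log2 intensity stands for the gene. The SD given with some genes is that of the difference between probe sets of the same gene on these arrays, and its pooled value over 5323 genes was 0.70. The median intensity of all probe sets was 65.8 on the mesothelial array and 42.3 on the liver array. These medians served as a floor, which a gene passed when it reached the median of its array on at least 1 array. A gene above the floor counts here as mesothelial-high where its difference was 1 or more, a 2-fold change, and as liver-high where it was -1 or less. Of 27 probe sets for bacterial transcripts, the brightest read 16.2 on the mesothelial array and 10.5 on the liver array. A lower value within that control level makes the fold a bound, computed against that level and marked by the words at least. The median difference over all genes was 0.66, which is 1.58-fold in favour of the mesothelial array. Probe sets for the 3′ end of beta-actin read 2.30 times those for its 5′ end on the mesothelial array and 1.49 times on the liver array, and for Gapdh the ratios were 2.15 on the mesothelial and 1.95 on the liver array. In a bulk sample, a gene carried by fewer cells and a gene with less RNA per cell cannot be told apart.

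The labelled cells matched their markers only in part. All 13 mesothelial markers that passed the floor were mesothelial-high, beside 45.4% of all genes above the floor. They include Pdpn itself, used for the sort, which differed by 5.28. Muc16, Upk1b, Lrrn4 and Aldh1a2 passed the floor on the mesothelial array alone. Part of this count was thus set by the sort and the floor. The hepatoblast list had a median difference of 0.70, close to that of all genes, and turned sign under other scalings. Its 9 measured markers summed to 75066 on the mesothelial array and 49409 on the liver array, so hepatoblast RNA was bright on both. Of 9 erythroid markers, 6 were liver-high, beside 3.83% of all genes above the floor. The 9 summed to 19523 in mesothelial and 43755 in liver cells.

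Most integrin and adaptor genes were brighter in mesothelial cells as deposited, and 11 of the 12 adaptors that passed the floor were so by 2-fold or more, beside 45.4% of all genes above the floor. After each array was centred on its median, 6 of the 12 adaptors were, beside 23.9% of all genes. The medians of both classes stayed above 0 under every scaling tried, though that of the integrins only just, at 0.028 in the lowest case. Of 28 members above the floor, 22 (78.6%) were mesothelial-high, beside 45.4% of all genes above the floor. Of the same 28, 1 was liver-high, the beta chain gene Itgb6, beside 3.83% of all genes. The other 5, Ilk, Itga1, Itga4, Itgal and Itgb1, differed by less than 2-fold. The 8 members under the floor were Itga2, Itga7, Itga10, Itgae, Itgam, Itgb4, Itgb7 and Lims2. With no floor, 24 of the 36 measured members exceeded 2-fold on the mesothelial side, beside 36.2% of all genes, and 1 on the liver side, beside 4.16%. The median difference over all measured members was 1.38. It was 1.14 for the 23 integrin chains and 1.95 for the 13 adaptors, beside 0.66 for all genes.

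**Figure D1:**
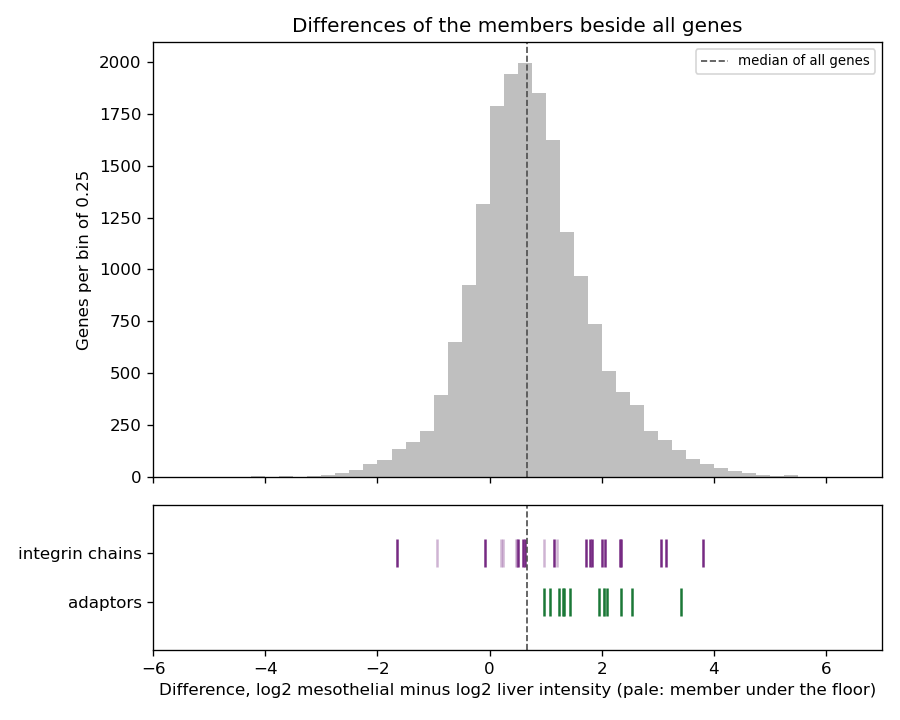
The upper panel counts all 18193 genes by their difference (log2 mesothelial minus log2 liver intensity, as deposited), and the lower panel marks each integrin chain and each adaptor, pale where it lay under the floor. The adaptors all lie to the right of the all-gene median of 0.66, while the integrin chains spread over both sides of it, from -1.66 to 3.82, the last against a liver value at the control level. The signs of Ilk, Parvg and 8 integrin chains turned under other scalings of the arrays.

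How the arrays are scaled against each other moved the counts. After each array was centred on its median over all probe sets, 16 members were mesothelial-high and 1 liver-high, beside 23.9% and 9.25% of all genes above the floor. Quantile normalization gave 13 and 1, beside 20.7% and 11.1%. Centring on 13 reference genes gave 8 and 2, beside 14.0% and 19.0%, and centring on 18 hybridisation controls gave 9 and 2, beside 14.6% and 17.9%. The second member on the liver side was then Itga4. The median difference of all genes was 0.03 after median centring, 0.08 after quantile normalization, -0.45 after centring on reference genes and -0.41 after centring on hybridisation controls. Under all 5 scalings, the as-deposited one included, 8 members were mesothelial-high, namely Itgb8, Parva, Itga8, Itga3, Zyx, Itgax, Tln2 and Itgav. They are the same 8 as after centring on reference genes, the strictest scaling, beside 14.0% of all genes there, and so not 5 separate checks. Itgav rests on 1 of its 5 probe sets, and Itgb8 and Itgax passed the floor on the mesothelial array alone. Of the 36 members, 26 kept their sign throughout, and the 10 that did not were Ilk, Parvg, Itga1, Itga2, Itga7, Itgae, Itgal, Itgb1, Itgb4 and Itgb7. The other 4 scalings lowered the difference of every member. They were thus no test of the sign of Itga4, Itgam and Itgb6, which were negative as deposited.

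**Figure D2:**
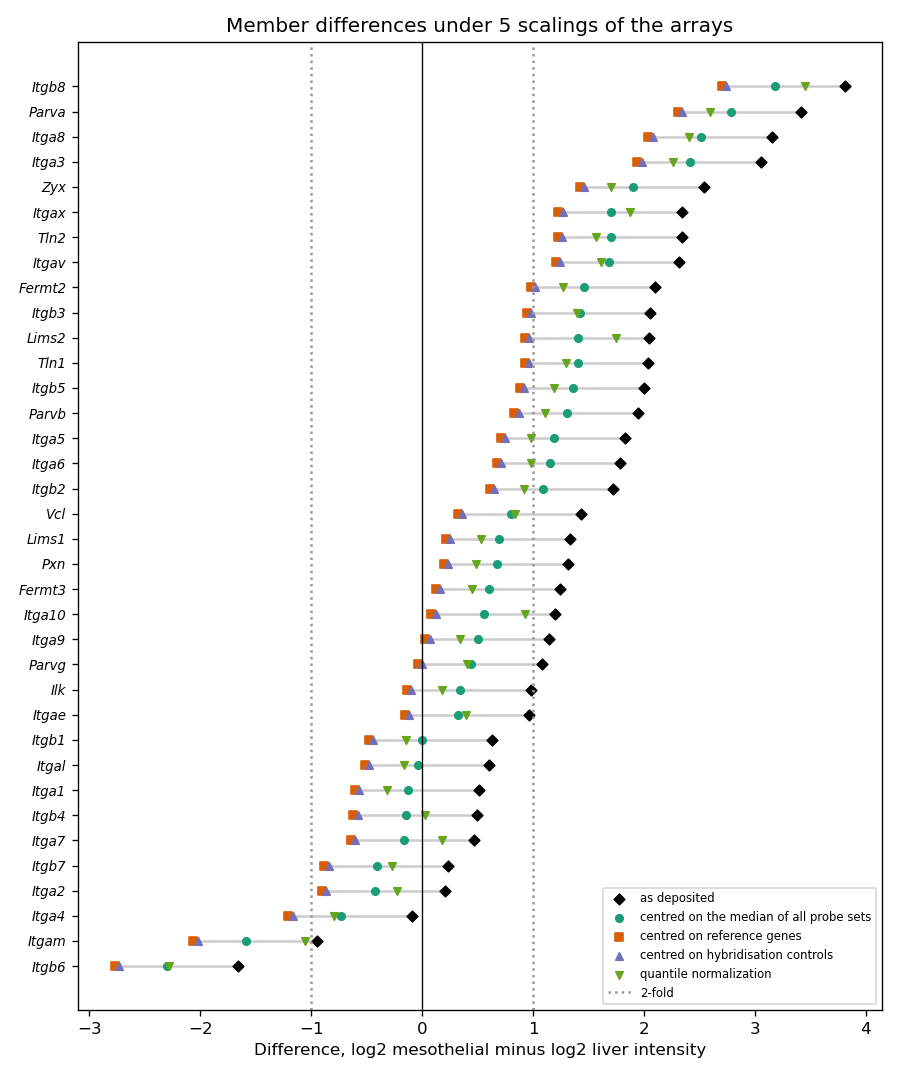
Each row is a member and each symbol its difference (log2 mesothelial minus log2 liver intensity) under 1 of 5 scalings, with dotted lines at 2-fold. The 8 rows from Itgb8 down to Itgav, in the order listed, stay to the right of the right-hand dotted line, Itgb6 stays to the left of the left-hand one, and 10 rows cross 0.

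Among the alpha chains, those that bind laminin and those that bind the RGD tripeptide of fibronectin, vitronectin and nephronectin stood furthest to the mesothelial side. The median was 1.79 for the laminin-binding and 2.32 for the RGD-binding chains, and both stayed above 0 under all 5 scalings. Itga8, whose product pairs with the beta1 chain as a receptor for nephronectin, read 429.9 in mesothelial cells, against 48.3 in liver cells, 8.90-fold higher. Its second probe set read 11.3 in mesothelial and 4.6 in liver cells, within the control level on both arrays, so the value rests on 1 probe set. Itga8 lay at percentile 97.4 of the differences of all genes. Itga3, the alpha chain of a laminin receptor of epithelia, read 587.6 in mesothelial cells, against 70.7 in liver cells, 8.31-fold higher (SD 0.89 over 3 probe sets). Those probe sets differed by 2.31, 3.06 and 4.09, so each put the gene at least 4-fold higher in mesothelial cells.

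The other alpha chains of these classes differed less. Itga6, which makes a laminin receptor with beta1 or with beta4, read 1973 in mesothelial cells, against 571.7 in liver cells, 3.45-fold higher (SD 0.53 over 2 probe sets). Itga5, the alpha chain of the main fibronectin receptor, read 914.3 in mesothelial cells, against 258.0 in liver cells, 3.54-fold higher. Its 4 probe sets ranged from 0.59 to 2.36. Itga7, the laminin-binding chain of muscle, read 16.5 in mesothelial cells, against 11.9 in liver cells, near the control level and under the floor. Beside it, 10 of 12 striated muscle markers that passed the floor were mesothelial-high, against 45.4% of all genes, and 1 was liver-high, the actin gene Acta1, at 22.7 in mesothelial and 67.4 in liver cells. The 14 measured ones summed to 4679 in mesothelial and 1078 in liver cells, with none at the control level, and their part in the members' values was not tested.

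Itgav, which pairs with 5 different beta chains, gave different answers by probe set. The brightest read 4218 in mesothelial cells, against 844.7 in liver cells, 4.99-fold higher. The other 4 read between 24.1 and 70.4 in mesothelial cells and between 26.2 and 122.8 in liver cells, with differences from -0.80 to 0.64. The median over the 5 was 0.04, so the position of Itgav rests on the 1 bright probe set. No source used here says which transcripts the dim ones detect.

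Of the 3 measured collagen-binding alpha chains, only Itga1 passed the floor, and the median of 0.51 turned sign under other scalings. Itga1 read 400.2 in mesothelial cells, against 280.7 in liver cells, a difference of 0.51 that is below the median of all genes, and its second probe set differed by 1.32. Itga2, the alpha chain of the platelet and epithelial collagen receptor, read 25.1 in mesothelial and 21.7 in liver cells, and Itga10, known from cartilage, read 21.8 in mesothelial cells, against 9.5 in liver cells, where it was at the control level, at least 2.08-fold higher. Both lay under the floor and so could not be called. Itga9, which binds tenascin-C among other ligands, read 212.9 in mesothelial cells, against 96.4 in liver cells, 2.21-fold higher (SD 0.37 over 3 probe sets), which is 0.48 above the all-gene median.

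Itga4 went the other way from most members. Its product, with beta1, binds VCAM1 and fibronectin and is carried by blood progenitors. The brightest probe set read 2146 in mesothelial cells, against 2285 in liver cells, a difference of -0.09. All 5 probe sets were lower in mesothelial cells, 2 of them by more than 2-fold, at 201.1 in mesothelial against 494.3 in liver cells and at 83.6 in mesothelial against 198.5 in liver cells. The dimmest read 11.1 in mesothelial cells, within the control level, against 18.3 in liver cells. The median of the 5 was -0.81. The other 4 scalings all lowered the difference of Itga4, to between -1.21 and -0.73, so they were no test of its sign.

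The leukocyte alpha chains mostly read near or under the floor, and their median of 0.78 turned sign under other scalings. Itgal, the chain of the receptor LFA-1 for ICAM proteins, read 120.1 in mesothelial cells, against 79.3 in liver cells, a difference of 0.60 whose sign turned under other scalings. Itgam, the chain of Mac-1 on macrophages and neutrophils, read 5.4 in mesothelial and 10.4 in liver cells, at the control level on both arrays. Itgae, which binds E-cadherin as a partner of beta7, read 55.9 in mesothelial and 28.7 in liver cells, under the floor. Itgax, known from dendritic cells and macrophages, read 67.5 in mesothelial cells, against 13.3 in liver cells, 5.08-fold higher, and passed the floor of 65.8 narrowly on its single probe set.

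**Figure D3:**
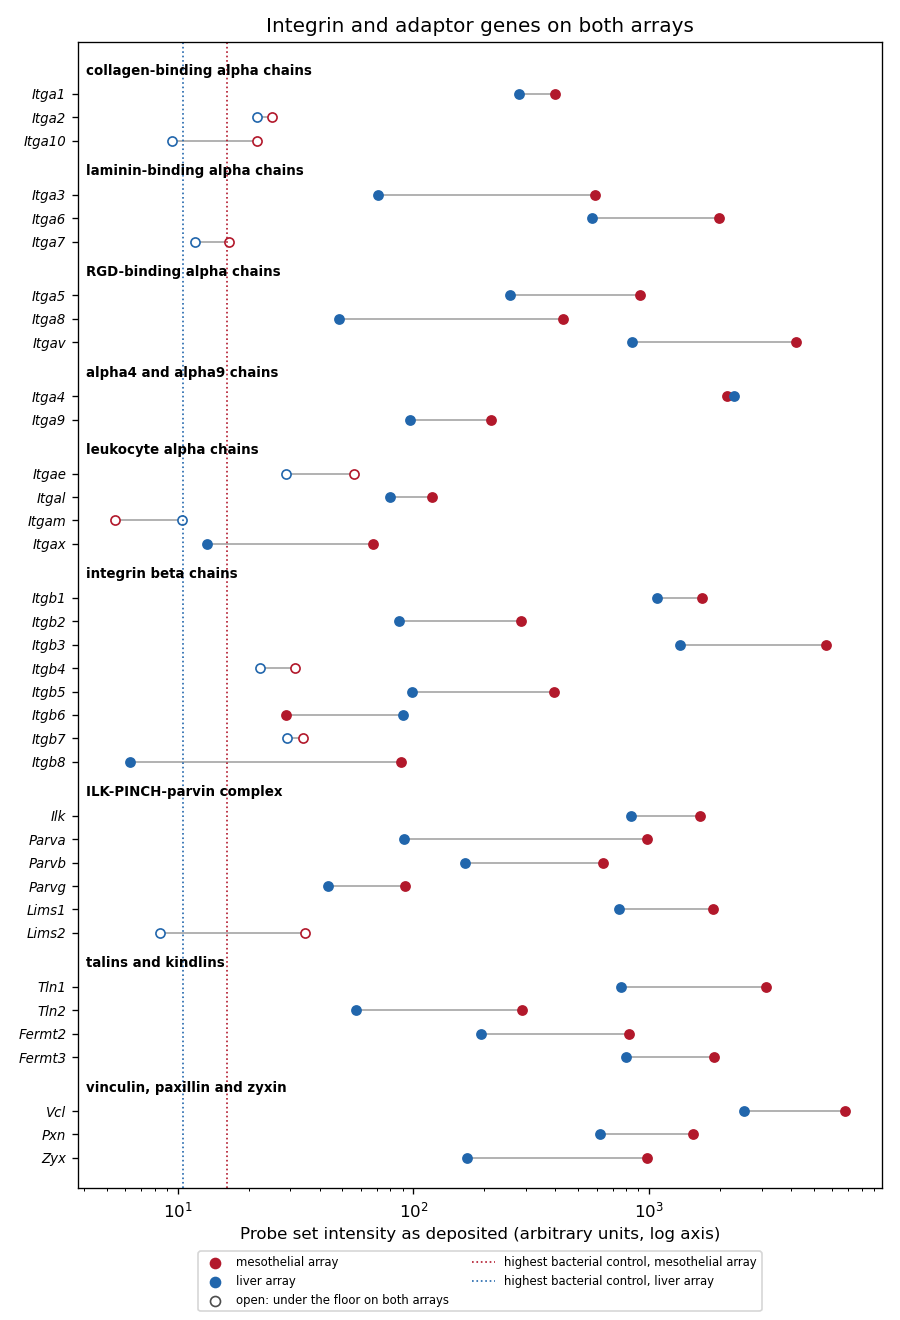
Each row gives 1 member's probe set intensity on the mesothelial array (red) and the liver array (blue), on a log axis and grouped by role, with open circles under the floor. Red lies right of blue in every row except Itga4, Itgam and Itgb6, and the spans of Itga3, Itga8, Itgb8 and Parva are the widest. Dotted lines give the highest bacterial control, 16.2 on the mesothelial array and 10.5 on the liver array. For Ilk, Parvg and 8 integrin chains the order of the arrays turned under other scalings.

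The beta chains ranged from one of the highest differences of the members to the lowest. Itgb8, whose product with alphaV releases active TGF-beta from its latent complex, read 88.7 in mesothelial cells, against 6.3 in liver cells, where it was at the control level, and was thus at least 8.45-fold higher. With the control level in place of the liver value its difference was 3.08 rather than 3.82, under those of Parva and Itga8. It rests on 1 probe set. Itgb6, whose product with alphaV also activates TGF-beta and is known from epithelia, read 28.7 in mesothelial cells, against 90.5 in liver cells, 3.15-fold higher in liver cells, with a second probe set at 7.5 in mesothelial and 17.2 in liver cells. It lay at percentile 1.50. The second probe set was under the floor and within the control level in mesothelial cells, at least 1.06-fold higher in liver cells, so the value rests on 1 probe set. Itgb6 passed the floor on the liver array alone. The other 4 scalings all lowered its difference, to between -2.77 and -2.28, so they were no test of its sign.

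Itgb3 and Itgb5, partners of alphaV in vitronectin receptors, were both on the mesothelial side. Itgb3 read 5611 in mesothelial cells, against 1348 in liver cells, 4.16-fold higher, and its second probe set, at 175.7 in mesothelial and 41.3 in liver cells, gave almost the same difference, 2.09 against 2.06. Itgb5 read 395.7 in mesothelial and 99.1 in liver cells, 3.99-fold higher, and its 4 probe sets ranged from 1.41 to 2.09. Itgb3 is also the beta chain of the platelet fibrinogen receptor. Its platelet partner Itga2b read 1257 in mesothelial cells, against 219.3 in liver cells. All 10 megakaryocyte and platelet markers that passed the floor were mesothelial-high, beside 45.4% of all genes, and 7 were after median centring, beside 23.9%. Their 11 measured members summed to 27764 in mesothelial and 7572 in liver cells, with differences from 1.48 to 3.26 and none at the control level, and their part in the value of Itgb3 was not tested.

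Itgb1, the partner of 11 of the measured alpha chains, stood with the typical gene. It read 1683 in mesothelial cells, against 1084 in liver cells, a difference of 0.63, against 0.66 for all genes. Its 6 probe sets ranged from -0.54 to 0.63, with a median of -0.06, and its sign turned under other scalings. Itgb2, the leukocyte beta chain, read 286.9 in mesothelial cells, against 86.8 in liver cells, 3.31-fold higher. Beside it, 6 of 11 macrophage markers that passed the floor were mesothelial-high, against 45.4% of all genes. After median centring 3 were mesothelial-high and 1 liver-high, beside 23.9% and 9.25% of all genes. As deposited, the median difference of the list was 0.64, against 0.66 for all genes, with differences from -0.36 to 2.45. The sums were 8091 in mesothelial and 2600 in liver cells, with Vsig4 within the control level on each array. Of 10 granulocyte and mast cell markers that passed the floor, 7 were liver-high, beside 3.83% of all genes, and 1 mesothelial-high, beside 45.4%. The 7 were S100a8, S100a9, Camp, Ngp, Ltf, Lcn2 and Prg2, with Ngp at the control level in mesothelial cells. The 1 was the mast cell gene Cpa3, at 1.82, while Mpo and Prtn3 differed by 0.79 and 0.49. Elane and Ms4a2 lay under the floor. The list summed to 3502 in mesothelial and 7729 in liver cells. The part of either list in the value of Itgb2 or Itgax was not tested. Itgb4, which with alpha6 forms hemidesmosomes, read 31.6 in mesothelial and 22.4 in liver cells, and Itgb7, a lymphocyte chain, read 34.2 in mesothelial and 29.1 in liver cells, both under the floor.

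Set side by side, the chains of a dimer often differed by unlike amounts. Of 21 alpha and beta pairs taken from textbook knowledge, 14 had both chains above the floor. Both chains were mesothelial-high in 4, which were alphaV with beta3, beta5 and beta8, and alphaX with beta2. The first 3 share the value of Itgav, which rests on 1 of its 5 probe sets, and Itgb8 and Itgax passed the floor on the mesothelial array alone. After median centring the same 4 remained, after quantile normalization the 3 with alphaV, and after centring on reference genes or hybridisation controls 1, alphaV with beta8. In the 11 pairs that hold beta1, the difference of Itgb1 is the same 0.63, while the alpha chains ran from -0.09 for Itga4 to 3.15 for Itga8. AlphaV with beta6 had its chains on opposite sides, at 2.32 and -1.66.

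**Figure D4:**
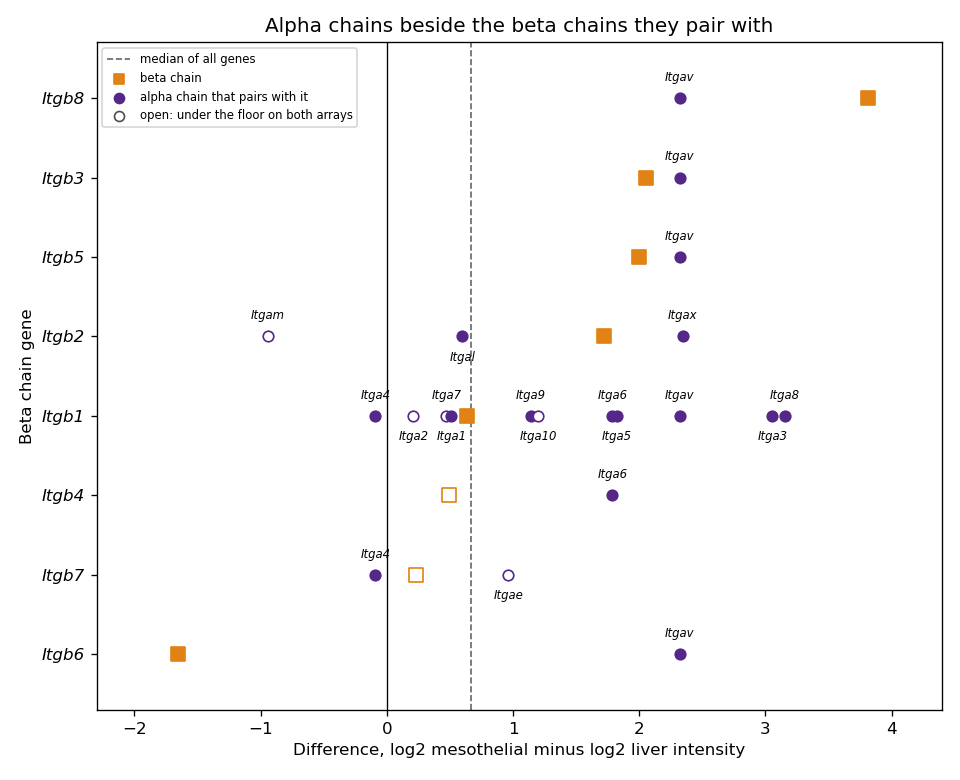
Each row is a beta chain gene, with its difference (log2 mesothelial minus log2 liver intensity, as deposited) as a square and those of the alpha chains that pair with it as circles, open where under the floor on both arrays. In the Itgb1 row the square lies at the all-gene median of 0.66 while the alpha chains spread from -0.09 to 3.15, and in the Itgb6 row square and circle lie on opposite sides of 0. The signs of Itgb1, Itgb4, Itgb7, Itga1, Itga2, Itga7, Itgae and Itgal turned under other scalings.

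Promoter windows from RefSeq (GRCm38.p6), 250 bases before to 50 after the annotated gene start, were found for 25 of the 36 members. Those of the alpha and beta chain genes with the largest differences that had one, Itga3 at chr11:95076665-95076964 on the minus strand, Itga8 at chr2:12301895-12302194 on the minus strand and Itgb8 at chr12:119238227-119238526 on the minus strand, are shown beside that of Itgb6 at chr2:60722554-60722853 on the minus strand, the member furthest to the liver side. They run 5′ to 3′ along the gene, and capitals mark GGGCGG, the core bound by Sp factors, read on either strand.
Itga3: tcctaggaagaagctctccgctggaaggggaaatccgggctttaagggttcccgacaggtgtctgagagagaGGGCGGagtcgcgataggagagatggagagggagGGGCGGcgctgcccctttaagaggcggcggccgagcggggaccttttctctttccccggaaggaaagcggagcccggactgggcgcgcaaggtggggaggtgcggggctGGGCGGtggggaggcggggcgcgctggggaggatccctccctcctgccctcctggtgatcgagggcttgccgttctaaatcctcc
Itga8: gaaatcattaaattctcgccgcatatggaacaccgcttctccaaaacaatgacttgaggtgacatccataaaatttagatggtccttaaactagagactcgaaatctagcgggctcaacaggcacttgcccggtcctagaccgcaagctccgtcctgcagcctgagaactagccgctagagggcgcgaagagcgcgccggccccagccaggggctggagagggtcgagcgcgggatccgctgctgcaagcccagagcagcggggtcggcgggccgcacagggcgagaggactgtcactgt
Itgb8: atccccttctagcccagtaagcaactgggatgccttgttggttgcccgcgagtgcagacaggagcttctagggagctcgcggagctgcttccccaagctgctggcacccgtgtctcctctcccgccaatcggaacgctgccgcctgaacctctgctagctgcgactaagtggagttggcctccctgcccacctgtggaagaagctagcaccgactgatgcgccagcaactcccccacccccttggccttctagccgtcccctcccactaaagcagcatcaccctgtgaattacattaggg
Itgb6: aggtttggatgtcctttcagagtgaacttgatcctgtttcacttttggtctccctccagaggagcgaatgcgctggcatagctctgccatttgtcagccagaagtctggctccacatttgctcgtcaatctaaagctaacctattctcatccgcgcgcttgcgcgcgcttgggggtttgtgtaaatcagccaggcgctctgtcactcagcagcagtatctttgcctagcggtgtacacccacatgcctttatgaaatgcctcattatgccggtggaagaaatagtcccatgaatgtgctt
The Itga3 window held 3 matches and the other 3 windows none. Over all 32851 windows, 35.7% held at least 1, as did 16 of the 31 windows of the 25 member genes. Itgb8 and Itgb6, on opposite sides in difference, were alike in having none.

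The CArG box, the site of serum response factor, a regulator of many actin cytoskeleton genes, was in 1.63% of all windows. It was in 3 of the 31 member windows, those of Vcl, Fermt2 and a second start of Itgb6, which do not share a direction. The windows of the first 2 lie at chr14:20929148-20929447 on the plus strand and chr14:45530016-45530315 on the minus strand, with the box in capitals.
Vcl: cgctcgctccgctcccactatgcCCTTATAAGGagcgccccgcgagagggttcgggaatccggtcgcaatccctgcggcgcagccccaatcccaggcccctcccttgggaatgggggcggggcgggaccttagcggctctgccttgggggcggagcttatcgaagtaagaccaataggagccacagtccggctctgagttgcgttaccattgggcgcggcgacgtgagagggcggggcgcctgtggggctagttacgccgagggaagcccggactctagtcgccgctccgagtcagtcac
Fermt2: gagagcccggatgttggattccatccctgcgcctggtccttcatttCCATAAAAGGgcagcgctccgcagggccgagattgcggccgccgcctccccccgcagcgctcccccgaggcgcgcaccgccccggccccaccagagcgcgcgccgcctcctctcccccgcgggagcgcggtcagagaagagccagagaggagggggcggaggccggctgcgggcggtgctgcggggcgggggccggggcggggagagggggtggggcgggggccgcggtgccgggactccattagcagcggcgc
Vcl was 2.71-fold and Fermt2 4.28-fold higher in mesothelial cells, as described with the adaptors. Of 4 other motifs searched on both strands, GGAATG, bound by TEAD factors, was in 3 of the 31 member windows, beside 14.7% of all windows, and TGANTCA, bound by AP-1, in 4, beside 7.81%. GCGNGGGCG, bound by EGR and WT1 proteins, was in 2, beside 5.55%, and TATAAA in 1, beside 13.6%. GCGNGGGCG can overlap GGGCGG by 5 bases. A match is a stretch of letters and not a site shown to be bound.

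The adaptors that bind the integrin tail directly were all on the mesothelial side. Tln1, which encodes the talin of most cells, read 3122 in mesothelial cells, against 759.8 in liver cells, 4.11-fold higher. Tln2, the second talin, read 290.0 in mesothelial and 57.3 in liver cells, 5.06-fold higher. Tln1 had a dim probe set that went against its other 2, at 53.7 in mesothelial and 60.1 in liver cells. The dim probe set of Tln2, at 8.1 in mesothelial and 8.8 in liver cells, was within the control level on both arrays and so gives no direction. Among the kindlins, Fermt2, the form of epithelia and mesenchyme, read 824.9 in mesothelial cells, against 192.8 in liver cells, 4.28-fold higher (SD 0.26 over 3 probe sets). Fermt3, the form of blood cells, read 1878 in mesothelial and 795.3 in liver cells, 2.36-fold higher, but its other 3 probe sets differed by only 0.24 to 0.48. With the median over probe sets, Fermt2 differed by 1.83 and Fermt3 by 0.45, on either side of the 0.57 of all genes under that rule.

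In the complex of ILK, PINCH and parvin, Parva had the largest difference and the other parvins lay among the rest. Parva, the widely expressed parvin, read 976.4 in mesothelial cells, against 91.4 in liver cells, 10.7-fold higher (SD 0.44 over 2 probe sets), and lay at percentile 98.3 of all genes. Parvb, known from heart and skeletal muscle, read 636.7 in mesothelial and 165.2 in liver cells, 3.85-fold higher, with its second probe set at 0.69. Parvg, the parvin of blood cells, read 91.9 in mesothelial and 43.5 in liver cells, 2.11-fold higher, but its second probe set differed by -0.47 and its sign turned after centring on reference genes. In the parvins as in the kindlins, the form known from blood cells had the smallest difference of the forms measured, though Parvg and Fermt3 were both mesothelial-high as deposited. They do not speak for other members known from blood cells, such as Itgb2 at 1.72 and Itgal at 0.60.

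By the brightest probe sets the scaffold of the complex had its smallest difference, close to the 1.08 of Parvg. With the median over probe sets Parvg, at 0.30, and Lims1, at 0.84, lay under it. Ilk, which encodes this kinase-like scaffold, read 1648 in mesothelial cells, against 835.9 in liver cells, a difference of 0.98 from 1 probe set, just under 2-fold, with a sign that turned under other scalings. Lims1, which encodes PINCH1, read 1871 in mesothelial and 744.1 in liver cells, 2.51-fold higher, while its other 4 probe sets ranged from 0.22 to 1.02. Lims2, which encodes PINCH2, read 34.6 in mesothelial cells, against 8.4 in liver cells, where it was at the control level, at least 3.30-fold higher but under the floor.

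Of the proteins that reinforce an adhesion, zyxin stood furthest to the mesothelial side. Zyx, whose product gathers at adhesions under tension, read 977.9 in mesothelial cells, against 168.5 in liver cells, 5.80-fold higher, with a second probe set at 61.3 in mesothelial and 25.1 in liver cells. Vcl, which encodes vinculin, the link from talin to actin, read 6812 in mesothelial and 2517 in liver cells, 2.71-fold higher (SD 0.10 over 2 probe sets). Pxn, which encodes the scaffold paxillin, read 1537 in mesothelial and 619.3 in liver cells, 2.48-fold higher (SD 0.41 over 3 probe sets). All 3 kept their sign under all 5 scalings. After median centring Zyx was still mesothelial-high, whereas Vcl and Pxn were not.

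Probe sets of the same gene did not always tell the same story. With no floor, 46 of the 86 probe sets exceeded 2-fold on the mesothelial side, beside 32.2% of the 34945 probe sets with 1 gene symbol, and 4 on the liver side, beside 3.96%. Those 4 belong to Itga4 and Itgb6. With values within the control level held at it, 45 and 3 did, since the dim probe sets of Itga8 and Itgb6 then fell short. Of the 25 members with several probe sets, 20 had all of them on the same side, and the other 5 were Itgav, Itgb1, Parvg, Tln1 and Tln2. For Tln2 the probe set on the other side was within the control level on both arrays. Probe sets of a gene share their RNA and are not independent.

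**Figure D5:**
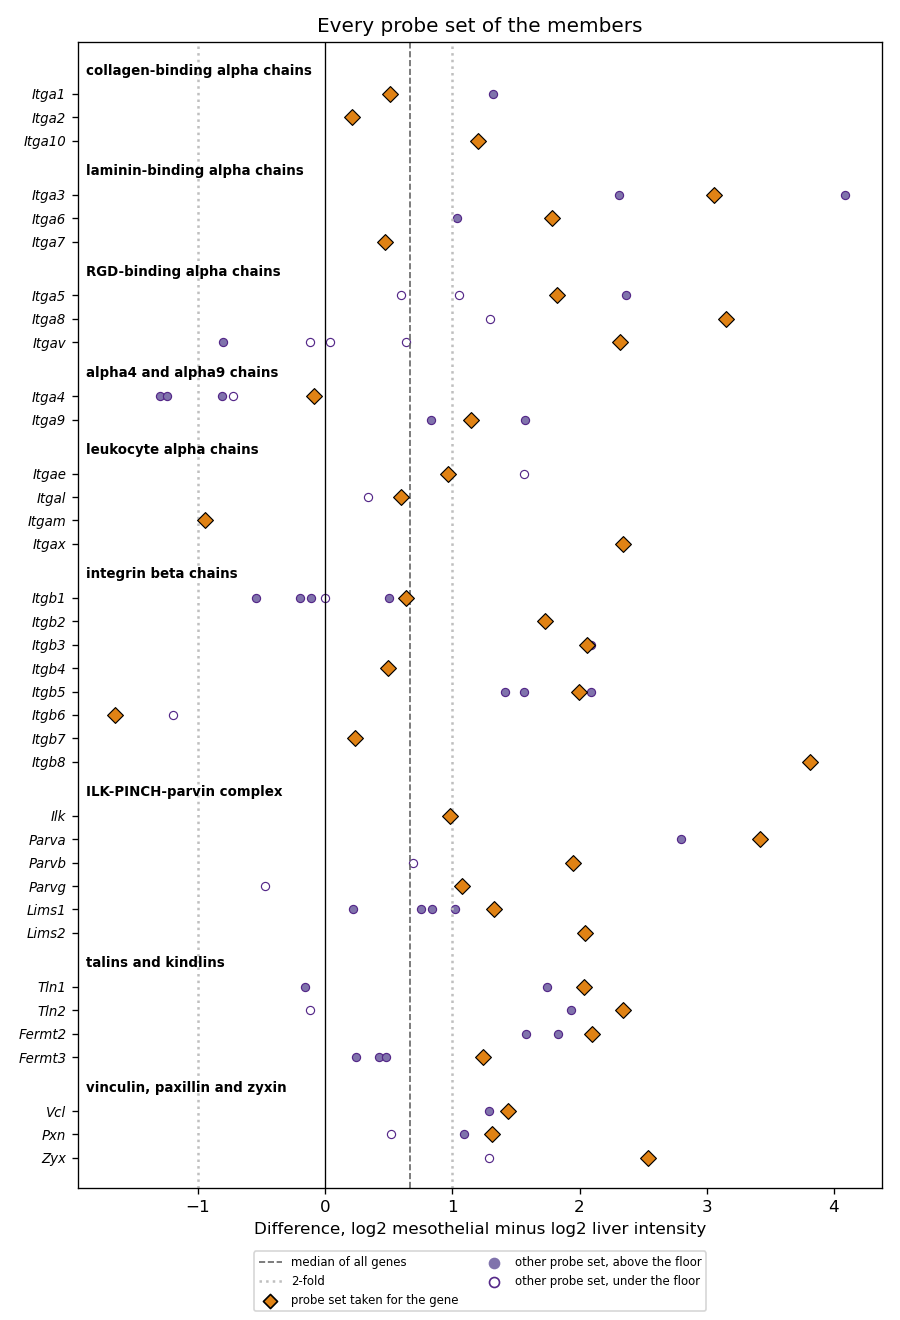
Each symbol is 1 probe set's difference (log2 mesothelial minus log2 liver intensity, as deposited), with a diamond for the probe set that stands for the gene. All probe sets of Itga3, Itgb3, Itgb5, Fermt2 and Parva lie to the right of 1, all 5 of Itga4 and both of Itgb6 lie left of 0, and those of Itgav, Tln1 and Tln2 spread over both sides of 0. The Tln2 symbol left of 0 read within the control level on both arrays, and the dimmer Itgb6 one on the mesothelial array. Other scalings shift the symbols, and the signs of Ilk, Parvg and 8 integrin chains then turned.

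Ligands of these receptors were on the mesothelial side in larger part. Of 37 ligand genes that passed the floor, 28 were mesothelial-high and 1 liver-high, beside 45.4% and 3.83% of all genes above the floor, and after median centring 25 and 1, beside 23.9% and 9.25%. The median difference of the 42 measured was 1.86, beside 0.66 for all genes, and stayed above 0 under all 5 scalings. Npnt, which encodes nephronectin, a ligand of the dimer that Itga8 belongs to, read 1537 in mesothelial cells, against 23.8 in liver cells, 64.6-fold higher, although its 5 probe sets ranged from 1.73 to 6.01. Tgfb3, whose latent form is activated by alphaV integrins, read 996.2 in mesothelial and 39.0 in liver cells, 25.5-fold higher. The laminin genes Lama5 and Lamb1, which encode chains of ligands of alpha3 and alpha6, read 13.5-fold higher (SD 2.44 over 3 probe sets) and 10.0-fold higher (SD 1.10 over 4). Col1a2, a chain of collagen I that is also in the stellate marker list, was 15.3-fold higher. On the other side, Icam4, known in human as a red cell ligand of integrins, read 405.1 in mesothelial cells, against 1026 in liver cells, and the next lowest, Icam2, read 239.0 in mesothelial and 274.9 in liver cells. Erythroid markers, with sums of 19523 in mesothelial and 43755 in liver cells and none at the control level, stood beside Icam4, and their part in it was not tested.

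Other focal adhesion proteins followed the adaptors. Of 39 that passed the floor, 30 were mesothelial-high and 0 liver-high, beside the same 45.4% and 3.83% of all genes, and after median centring 21 and 0, beside 23.9% and 9.25%. The median difference of the 41 measured was 1.70 and stayed above 0 under all 5 scalings. Cav1, which encodes caveolin-1 and is also in the mesothelial marker list, read 1117 in mesothelial and 48.3 in liver cells, 23.1-fold higher. Flna, which encodes filamin A, a crosslinker of actin that binds beta tails, was 10.8-fold higher at 3297 in mesothelial and 305.8 in liver cells. The tensin gene Tns3, the talin-binding Kank1 and the kinase gene Src read 9.67-fold, 10.6-fold and 13.4-fold higher. Each had 2 probe sets on the same side but of unlike size (SD 1.23, 1.39 and 1.92), the smaller at 1.54, 1.44 and 1.04. The adaptor genes Nck1 and Crkl were furthest the other way, at -0.21 and -0.02.

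Genes that regulate integrin activation or sit beside integrins in the membrane were more mixed. Of 25 that passed the floor, 15 were mesothelial-high and 0 liver-high, beside 45.4% and 3.83% of all genes, and after median centring 12 and 3, beside 23.9% and 9.25%. The median difference of the 26 measured was 1.53 and stayed above 0 under all 5 scalings. Cd151, a tetraspanin that binds the alpha3 and alpha6 chains, read 3284 in mesothelial cells, against 284.3 in liver cells, 11.6-fold higher (SD 1.27 over 6 probe sets). Pip5k1c, whose product makes the lipid that activates talin, was 5.51-fold higher (SD 1.60 over 2 probe sets), and Rap1gap, which switches off the talin regulator RAP1, 5.25-fold. Rapgef3, which switches RAP1 on, was at the control level in liver cells and at least 8.81-fold higher. Dab1, whose product binds beta tails in vitro, was 15.3-fold higher, yet its 5 probe sets ranged from 0.11 to 3.93. The tetraspanin gene Cd82 and the calcium-binding protein gene Cib1 were furthest the other way, at -0.92 and -0.67.

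Mesenchymal markers moved with the mesothelial array as well. Of 11 stellate and submesothelial markers that passed the floor, 10 were mesothelial-high, beside 45.4% of all genes, and 7 after median centring, beside 23.9%. The differences ran from 0.23 to 3.93, with sums of 27908 in mesothelial and 4041 in liver cells and Cnn1 at the control level in liver cells. Itga8, Itga5, Parva, Fermt2 and Zyx are also expressed by mesenchyme, and the part of such cells in their values was not tested. Of 10 endothelial markers that passed the floor, 3 were mesothelial-high and 0 liver-high, beside 45.4% and 3.83% of all genes. After median centring 1 was mesothelial-high and 1 liver-high, beside 23.9% and 9.25%. Their differences as deposited ran from -0.44 to 1.79, with sums of 3148 in mesothelial and 1634 in liver cells.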

How the data were processed

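RNA of 1 mesothelial and 1 liver cell sample was hybridised to 1 Affymetrix mouse array each after amplification from 20 ng. The authors deposited an intensity per probe set, whose range shows a linear scale. Per the submitters' processing notes, RMA and Partek were used, with no version, role or order, and no source used here states a scaling between arrays. Log2 values were taken with Python 3.11.15, numpy 2.4.6 and pandas 2.3.3. Gene symbols came from the platform's annotation, and only the 34945 with 1 gene symbol were used. All 36 member symbols matched RefSeq (GRCm38.p6), whose promoter windows were searched. With 1 array a group, no test was run. The counting of genes called 2-fold apart was run on simulated data, 2 copies of the liver array with 4-fold changes and noise below the spread between probe sets. With no scaling difference between the copies, that run checks the code and not the calls made here. The number of arrays limits the precision, amplification can alter ratios of transcripts, and the file has no detection flags. Members, gene lists and alternatives were chosen with earlier results of these data known. By rule every measured member was named. In each other pathway list the 5 genes with the largest difference above the floor and the 2 furthest the other way were named, and Itga2b was added beside Itgb3. Alternatives were 4 scalings, a gene's median over probe sets, dropping those ending in _x_at or _s_at, raising low values to the control level, a 4-fold threshold, and the floor removed or set at the 75th percentile.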

Additional observations from a re-analysis of the deposited data

How the results depend on the processing

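As deposited, 22 members were mesothelial-high and 1 liver-high, and the medians were 1.14 for integrins and 1.95 for adaptors. The counts were 8 and 2 after centring on reference genes, with medians of 0.028 and 0.83, and 9 and 2 after centring on hybridisation controls, with medians of 0.068 and 0.87. Quantile normalization gave 13 members on the mesothelial side, with medians of 0.40 and 1.11. A 4-fold threshold gave 11 and 0, beside 15.9% of all genes on the mesothelial side. A floor at the 75th percentile left 16 of 20 members on the mesothelial side, beside 42.9% of all genes, and 0 on the liver side. Fewer genes pass either setting. Parvg turned to -0.036 after centring on reference genes, and no other member counted as at least 2-fold apart changed sign under any alternative. Centring lowered every difference by a constant, 0.64 on the median, 1.11 on reference genes and 1.08 on hybridisation controls. Under quantile normalization, which recomputes every member, 21 of 36 differences of single members moved by more than the pooled SD of 0.70 between probe sets. With the median over probe sets 5 of 36 did, with dropped probe sets 2 and with raised low values 2. These last settings cannot move a member with 1 probe set, none dropped or no low value, so their low counts say little about stability. With the median over probe sets 18 members were mesothelial-high, the 22 less Fermt3, Itgav, Lims1 and Parvg, beside 37.2% of all genes. Without probe sets ending in _x_at or _s_at 20 were, the 22 less Fermt3 and Lims1, beside 43.4%. No paired analysis was possible because each group has 1 array. With no detection flags, values near the control level, such as those of Itgb8 and Lims2 in liver cells, give bounds.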
